A study of Rattus norvegicus with 8 samples.

Results

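The IGF family was described by 10 genes: the ligands Igf1 and Igf2, the receptors Igf1r, Igf2r and Ghr, and the binding proteins Igfbp2, Igfbp3, Igfbp4, Igfbp5 and Igfbp6. They were chosen by gene name among the non-control spots of the arrays. All 10 were measured, of 17361 genes tested in all. Whole pituitary was taken on postpartum day 7 from lactating Wistar rats, 4 dams exposed to TCDD and 4 control dams, each hybridised to its own 1-colour Agilent array. TCDD is the dioxin whose effects run largely through AhR, the aryl hydrocarbon receptor, which turns on genes once a ligand is bound. Dose, route and day of exposure, the treatment of the control dams and the age of the dams are not stated in the labels. The comparison addresses how exposure of the dam alters gene expression in the pituitary during lactation.

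Insulin-like growth factors are small secreted peptides that act through the IGF1 receptor, a tyrosine kinase that signals through phosphatidylinositol kinase and AKT. Growth hormone from the somatotrophs of the pituitary drives IGF1 output through the growth hormone receptor, mainly in liver, and IGF1 in turn restrains growth hormone release at the pituitary and the hypothalamus. The pituitary also makes IGF1 itself. Binding proteins in the extracellular fluid hold the ligands, lengthen their life and limit or deliver them to the receptor.

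The TCDD dams shared 1 slide and the control dams shared the other, so slide and exposure cannot be told apart in any of the comparisons. Between 71.1% and 73.9% of non-control spots were well above background on each array, 0 were saturated, and the 75th percentile of the processed signal was between 765 and 932. Prl, Gh1 and Pomc, the genes of prolactin, growth hormone and the corticotropin precursor, had group means between 8.17 and 8.63 on the scale used throughout, log2 of the processed signal minus the array's 75th percentile. Of 6 hepatocyte markers Alb, Fgb and Serpina1 were well above background on 0 arrays and the other 3 were measured. Ahsg averaged 1.58 ± 0.18 in TCDD dams and 1.67 ± 0.18 in control dams, Apoa1 averaged -5.57 ± 1.05 in TCDD dams and -6.09 ± 0.53 in control dams, and Ttr averaged -7.01 ± 1.35 in TCDD dams and -5.72 ± 0.76 in control dams (SD, n = 4 each). Of the erythrocyte markers 5 of 5 measured were higher in TCDD dams at an unadjusted p under 0.05 by limma, where 7.76% of all genes were. After adjustment 0 passed. Their mean deviation from the average array was between 0.00 and 0.72 in TCDD dams, against -0.73 to 0.22 in control dams. With 4 arrays in each group, the number of arrays limits the precision, and in whole tissue fewer cells of a type and less RNA per cell cannot be told apart.

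The family was read by 15 probes on 24 spots of each array, and 14 of the probes were kept as well above background on 4 or more arrays. Probe sequences are shown for Igf1, Igfbp2 and Ghr, each with more than 1 kept probe. Igfbp5 also had more than 1, and its sequences are not printed. All are 60 bases long, and capitals mark a stop codon at the end of a probe. The Igf1 probe lies at chr7:24587916-24587975 on the plus strand of the rn4 build, the Igfbp2 probe at chr9:71993843-71993902 on the plus strand, and the first and second Ghr probes at chr2:52524230-52524289 and chr2:52497358-52497417 on the minus strand. The capitals place the Igfbp2 probe and the second Ghr probe at the end of their coding sequences. Exon numbers were not assigned, since no annotation of rn4 was used here.
Igf1: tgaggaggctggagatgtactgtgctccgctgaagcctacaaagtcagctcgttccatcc
Igfbp2: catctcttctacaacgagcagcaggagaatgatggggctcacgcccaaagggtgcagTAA
Ghr, first: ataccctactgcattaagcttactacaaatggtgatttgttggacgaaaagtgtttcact
Ghr, second: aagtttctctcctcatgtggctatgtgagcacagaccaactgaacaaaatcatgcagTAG

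No member of the family passed the threshold between TCDD and control dams. After Benjamini-Hochberg adjustment over all 17361 genes by limma, 0 of 10 members were called, where 0.0806% of all genes tested were called. At an unadjusted p under 0.05 there was 1 of 10, Igf1, where 10.7% of all genes reached that level. The arrays of the groups were fully separate in 0 of 10 members, where 7.1% of all genes had no overlap. The differences were positive in 6 members and negative in 4, with a median of 0.09 on the log2 scale beside 0.02 over all genes, and adjusted p-values ran from 0.44 to 0.99.

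**Figure D1:**
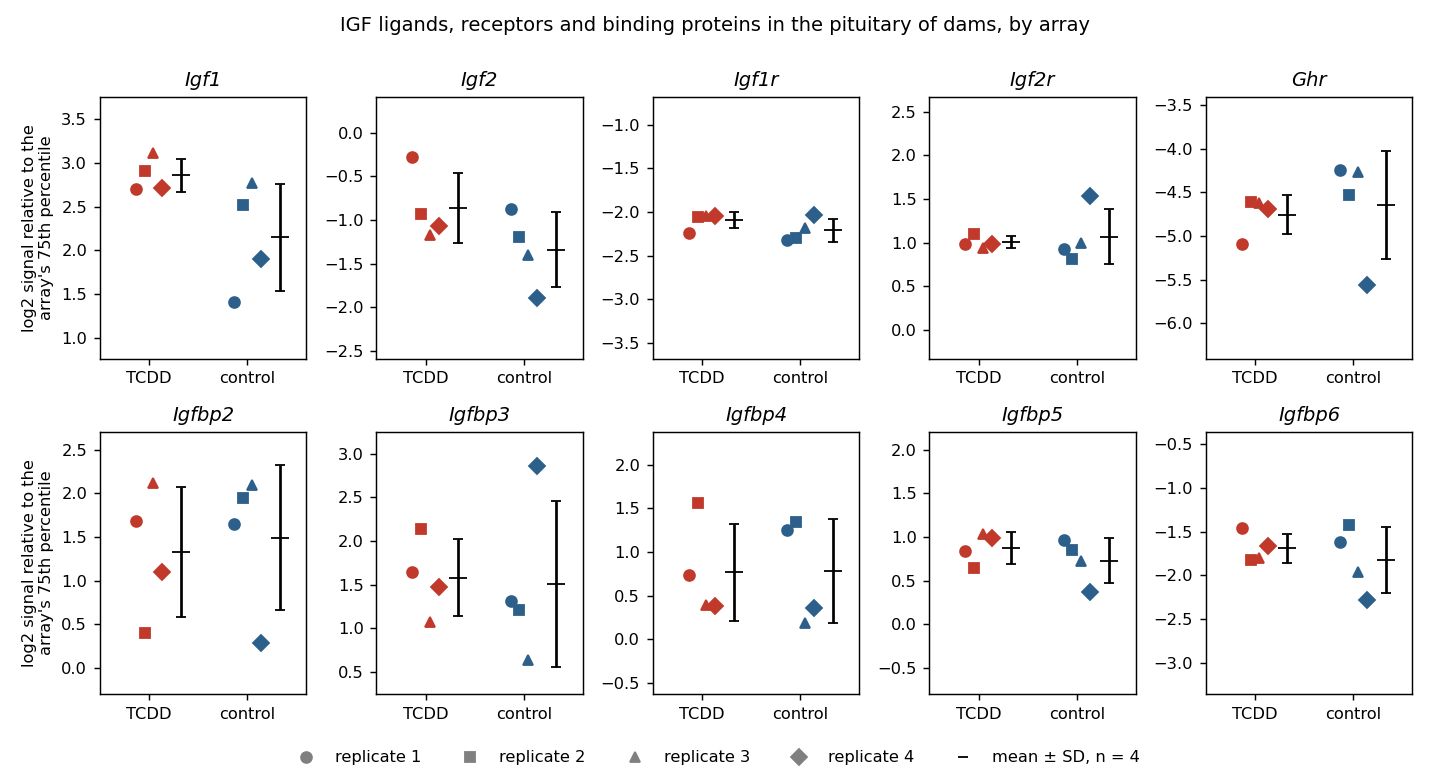
Log2 signal relative to the array's 75th percentile for the 10 members, with TCDD arrays left of control arrays in each panel. Symbols are single arrays and bars are means with SD (n = 4 each); every panel spans the same number of log2 units. The control arrays spread more widely than the TCDD arrays for Igf1, while Igfbp2, Igfbp3 and Igfbp4 spread widely in both groups.

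Igf1, the ligand that growth hormone drives, had the largest difference of the family. Its processed signal was 5488, 5736, 7114 and 5908 on the 4 TCDD arrays, against 2475, 5013, 5856 and 3009 on the 4 control arrays. On the log2 scale these were 2.71, 2.91, 3.11 and 2.72 in TCDD dams, against 1.41, 2.52, 2.77 and 1.90 in control dams. The TCDD dams lay close together at the upper end, control 1 and control 4 lay low, and the groups overlapped only because control 3 was above TCDD 1 and TCDD 4. Means were 2.86 ± 0.19 in TCDD dams and 2.15 ± 0.61 in control dams (SD, n = 4 each). The difference was 0.71 (SE 0.28), or 1.64-fold, with a 95% interval of 0.07 to 1.36. limma gave an unadjusted p of 0.0347 and an adjusted p of 0.44, so Igf1 was not called. An exact two-sided permutation test over the 70 assignments of arrays to groups gave p = 0.086, where 0.029 is the smallest p it can give.

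The second Igf1 probe, printed above, lies away from the first at chr7:24604715-24604774 and gave almost the same pattern. Its difference was 0.72 (SE 0.26), with means of 1.33 ± 0.10 in TCDD dams and 0.61 ± 0.59 in control dams (SD, n = 4 each). Across the 8 arrays the probes had a Pearson correlation of 0.99, as a description of 1 RNA read at 2 places. The size leaned on control 1: without that array the Igf1 difference was 0.46, and without control 3 it was 0.92 with an unadjusted p of 0.0079 and an adjusted p of 0.40. Over the 8 arrays Igf1 had r = -0.01 with the somatotroph markers and r = 0.46 with the erythrocyte markers (exact permutation, adjusted p = 0.99 and 0.60). Centred within each group, these were 0.35 and -0.18, so the positive r with the erythrocyte markers was not kept. The marker list with the largest r in size was that of lactotrophs (r = -0.47, rho = -0.71, exact permutation, adjusted p = 0.60), with -0.37 after centring. Among 12475 other genes with a symbol, those most like Igf1 over the 8 arrays after centring within each group were Mtres1 (r = 0.97), Osgep (r = 0.96) and Polr3k (r = 0.95). Their own differences between groups were 0.01, -0.02 and 0.11. These genes are the top of a ranking over 12475 genes, where a high r on 8 arrays can arise by chance, and no test was run.

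Igf2, the ligand best known for fetal growth and expressed from the paternal allele, gave -0.28, -0.93, -1.18 and -1.07 in TCDD dams, against -0.87, -1.20, -1.40 and -1.89 in control dams. TCDD 1 was the highest array and control 4 the lowest, and the 6 between them mixed. Means were -0.86 ± 0.40 in TCDD dams and -1.34 ± 0.43 in control dams (SD, n = 4 each). The difference of 0.48 (SE 0.26, 95% interval -0.11 to 1.07) had an unadjusted p of 0.0987 and an adjusted p of 0.56 in limma. The single Igf2 probe lies at chr1:202906641-202906700 on the minus strand of rn4. Without TCDD 1 the difference was 0.28, and without control 4 it was 0.29. The meninges markers, which were low on control 4 (-0.68), had r = 0.85 with Igf2 over the 8 arrays (rho = 0.74, exact permutation, adjusted p = 0.24) and r = 0.40 without the 2 arrays farthest from the Igf2 median; their part in the Igf2 difference was not tested. The genes most like Igf2 within groups were Sulf2 (r = 0.97), Prr13 (r = 0.97) and Mrpl43 (r = 0.96), whose differences were 0.01, 0.17 and -0.11. They too are the top of a ranking over all genes with a symbol, without a test.

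**Figure D2:**
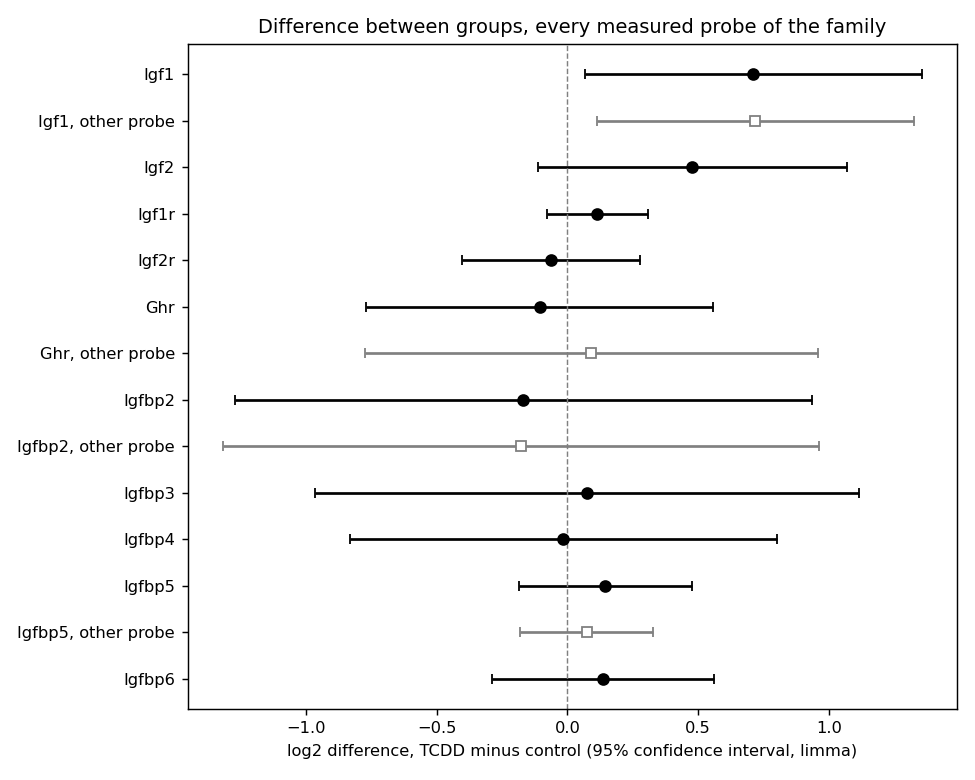
Log2 difference between TCDD and control dams for each kept probe of the family, with its 95% confidence interval from limma. Filled circles are the probe used for the gene and open squares its other probe; only the 2 Igf1 probes have intervals above 0.

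None of the receptors was called between groups. Igf1r, the tyrosine kinase receptor for both ligands, was read by 10 spots on each array at chr1:122989150-122989209 on the plus strand of rn4. It gave -2.24, -2.05, -2.04 and -2.05 in TCDD dams, against -2.32, -2.30, -2.18 and -2.04 in control dams. TCDD 1 stood below the other TCDD arrays and control 4 was as high as they were. The difference was 0.11 (SE 0.08, 95% interval -0.08 to 0.31, adjusted p = 0.69). Igf1r had r = 0.87 with the erythrocyte markers over the 8 arrays (rho = 0.64, exact permutation, adjusted p = 0.24) and r = 0.73 without the 2 arrays farthest from its median; their part in its level was not tested.

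Igf2r, which takes up IGF2 for breakdown and sorts lysosomal enzymes, gave 0.99, 1.10, 0.94 and 0.99 in TCDD dams, against 0.93, 0.82, 1.00 and 1.53 in control dams. The TCDD arrays were nearly level and control 4 stood above all others. The difference was -0.06 (SE 0.15, 95% interval -0.40 to 0.28, adjusted p = 0.93), and without control 4 it was 0.09. Its probe lies at chr1:42340766-42340825 on the plus strand of rn4.

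Ghr, the growth hormone receptor, was dim. Its brightest probe, the second printed above, gave -5.09, -4.61, -4.62 and -4.69 in TCDD dams, against -4.25, -4.53, -4.26 and -5.56 in control dams. Control arrays lay both above and below all TCDD arrays. The difference was -0.11 (SE 0.29, adjusted p = 0.94), and without control 4 it was -0.41. Its 95% interval, -0.77 to 0.55, is wide, so a sizeable change in either direction stays possible. The first probe, well above background on 4 TCDD arrays and 3 control arrays, gave 0.09 (SE 0.38), and the probes correlated at 0.61 across the 8 arrays. Another probe, at chr2:52496746-52496805 on the minus strand, was well above background on 1 TCDD array and 0 control arrays and was not kept. The probes of Ghr thus give no common direction.

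Among the binding proteins dams of the same group differed from each other by more than the group means did. Igfbp2 gave 1.68, 0.40, 2.12 and 1.09 in TCDD dams, against 1.65, 1.95, 2.09 and 0.28 in control dams. TCDD 2 and control 4 were low and the groups overlapped throughout. The arrays spanned a 3.56-fold range, and the difference between groups was -0.17 (SE 0.48, 95% interval -1.27 to 0.94, adjusted p = 0.94). Its probes, the one used at chr9:71994131-71994190 and the one printed above, correlated at 1.00 after rounding and gave -0.17 and -0.18, so the low arrays were low at both places. Without TCDD 2 the Igfbp2 difference was 0.14, and without control 4 it was -0.57.

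Igfbp3, the main carrier of IGF1 in blood together with the acid-labile subunit, gave 1.65, 2.14, 1.07 and 1.47 in TCDD dams, against 1.32, 1.21, 0.64 and 2.86 in control dams. Control 4 and TCDD 2, the low arrays for Igfbp2, were the high arrays here, and control 3 was the lowest. The arrays spanned a 4.65-fold range, the widest of the family, while the difference between groups was 0.07 (SE 0.45, 95% interval -0.97 to 1.12, adjusted p = 0.98). Without control 3 it was -0.21, and without control 4 it was 0.52. Its probe lies at chr14:87959244-87959303 on the minus strand of rn4.

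Igfbp4, which holds IGFs until the protease PAPP-A cleaves it, gave 0.73, 1.56, 0.39 and 0.38 in TCDD dams, against 1.26, 1.34, 0.18 and 0.35 in control dams. TCDD 2, control 1 and control 2 were high, while TCDD 3, TCDD 4, control 3 and control 4 were low. The difference was -0.02 (SE 0.35, adjusted p = 0.99). Igfbp5, a binding protein that also attaches to the extracellular matrix, gave 0.83, 0.64, 1.04 and 0.98 in TCDD dams, against 0.96, 0.86, 0.73 and 0.36 in control dams. Only control 4 lay below the TCDD range, and the difference was 0.14 (SE 0.14, adjusted p = 0.78), with 0.07 (SE 0.11) from its other probe. Without control 4 the Igfbp5 difference was 0.024. Igfbp6, which prefers IGF2, gave -1.46, -1.82, -1.80 and -1.67 in TCDD dams, against -1.62, -1.43, -1.96 and -2.29 in control dams. Control 2 lay above and control 3 and control 4 below all TCDD arrays, and the difference was 0.14 (SE 0.18, adjusted p = 0.85), or -0.018 without control 4. The probes used lie at chr10:87834213-87834272 on the plus strand for Igfbp4, chr9:72000312-72000371 on the minus strand for Igfbp5 and chr7:140888422-140888481 on the plus strand for Igfbp6, all on rn4.

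The members were then compared with each other over the 8 arrays, in 45 pairs. Of the Pearson correlations 24 were positive and 21 negative, 11 had an exact permutation p under 0.05, and 0 passed after adjustment over the pairs. Igfbp2 and Igfbp3 ran opposite to each other (r = -0.91, rho = -0.90, exact permutation p = 0.0011, adjusted p = 0.0502). Within the TCDD dams their r was -0.88 and within the control dams -0.98, each over 4 arrays, too few for a test. Without the 2 arrays farthest from the Igfbp2 median, TCDD 2 and control 4, r was -0.68 over 6 arrays, so the size rests in part on those arrays. With each gene centred within its group, 4 pairs passed by exact permutation. These were Igfbp2 with Igfbp3 (r = -0.91, adjusted p = 0.034) and Igf2 with Igf1r (r = -0.96, adjusted p = 0.0011). The others were Igf1r with Igfbp6 (r = -0.93) and Igf2r with Igfbp5 (r = -0.87), with an adjusted p of 0.035 for both. The permutation of centred values shuffled all 8 arrays freely rather than within groups. Centring ties the values of a group together, so these p-values come out too small and the centred correlations are descriptive only. For Igf2 and Igf1r the correlation without centring was -0.41 (adjusted p = 0.56). For Igf1r and Igfbp6 it was -0.64 (adjusted p = 0.32) and for Igf2r and Igfbp5 -0.86 (adjusted p = 0.12).

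**Figure D3:**
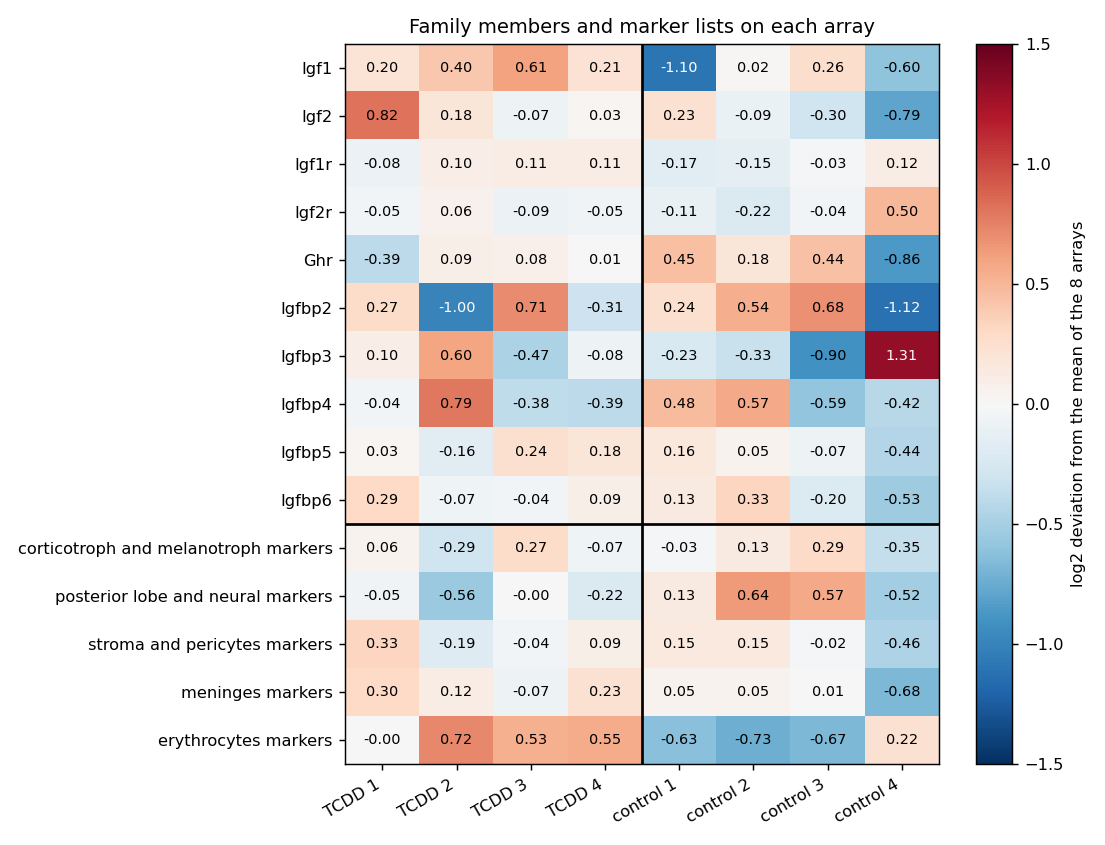
Each member's log2 deviation from its mean over the 8 arrays, above the line, and the mean deviation of 5 marker lists, below it, with TCDD arrays left and control arrays right. Control 4 has the lowest Igfbp2 (-1.12) and the highest Igfbp3 (1.31), and its stroma and meninges markers are low.

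Igfbp2 and Igfbp3 were also set against 13 marker lists, and 1 list, that of corticotrophs and melanotrophs, passed with each. The mean deviation of 4 corticotroph and melanotroph markers (Pomc, Tbx19, Crhr1 and Pcsk2) was 0.06, -0.29, 0.27 and -0.07 on the TCDD arrays, against -0.03, 0.13, 0.29 and -0.35 on the control arrays. The same arrays were low, TCDD 2 and control 4, as for Igfbp2. Its correlation with Igfbp2 was 0.97 (rho = 0.98, exact permutation p = 4.96e-05, adjusted p = 0.0064 over the 130 correlations of members with marker lists). With Igfbp3 it was -0.92 (rho = -0.93, adjusted p = 0.031). Without the 2 arrays farthest from the member's median, r was 0.90 for Igfbp2 and -0.88 for Igfbp3. Centred within groups, r was 0.97 for Igfbp2 and -0.92 for Igfbp3. By rank the adjusted p was 0.0516 for Igfbp2 and 0.145 for Igfbp3, so neither passed by Spearman. These 130 correlations were chosen after the data were seen; by Pearson 17 had an unadjusted permutation p under 0.05 and 2 passed after adjustment.

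The list did not act as a unit. Of its members Tbx19, a transcription factor of the corticotroph and melanotroph lineage, had r = 0.90 with Igfbp2 and Crhr1, the receptor for corticotropin-releasing hormone, had r = 0.84. Pcsk2, a prohormone convertase, had r = 0.57, and Pomc, the hormone gene itself, had r = 0.06 and spanned only a 1.17-fold range over the arrays. The similarly bright Gh1 and Prl spanned 1.16-fold and 1.18-fold. Whether the arrays resolve differences between dams at that brightness was not tested. Pax7, the defining melanotroph factor, was well above background on 0 arrays. Without Crhr1, the dimmest of them, the list's r was 0.82 with Igfbp2 and -0.68 with Igfbp3. Posterior lobe and neural markers moved the same way (r = 0.86 with Igfbp2 and -0.82 with Igfbp3, adjusted p = 0.24 for both). Whether the dissected share of each lobe had a part in the spread of Igfbp2 and Igfbp3 was not tested. Igfbp6 had r = 0.92 with 9 stroma and pericyte markers (rho = 0.90, adjusted p = 0.073), and r = 0.81 without control 4. Its members were uneven: Lum (r = 0.92), Pdgfra (0.86), Dcn (0.83) and Col3a1 (0.77) had the highest r with Igfbp6, while Col1a1 had 0.44, Col1a2 0.33, Rgs5 0.26, Acta2 0.17 and Pdgfrb 0.07.

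**Figure D4:**
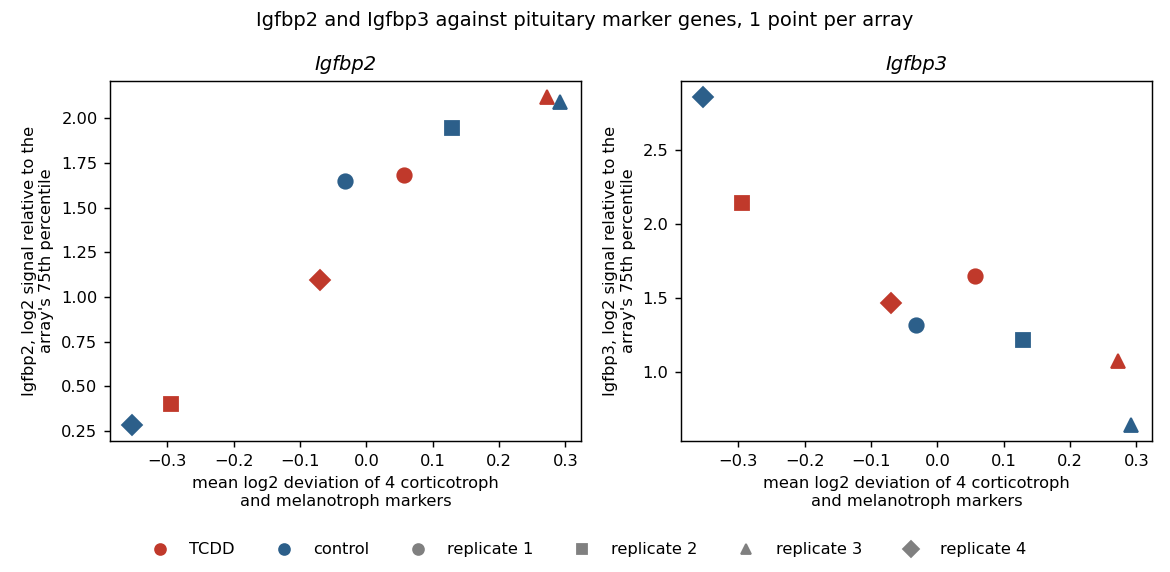
Igfbp2 (left) and Igfbp3 (right), as log2 signal relative to the array's 75th percentile, against the mean log2 deviation of 4 corticotroph and melanotroph markers, 1 point per array, TCDD red and control blue. Igfbp2 rises and Igfbp3 declines along the marker axis within both groups, and TCDD 2 and control 4 stand at the left end.

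The promoters of Igfbp2 and Igfbp3 are shown because these genes varied most from dam to dam and in opposite directions. The sequences are the 250 bases before the RefSeq start on the GRCr8 build, at chr9:81864561-81864810 on the plus strand for Igfbp2 and chr14:86277945-86278194 on the minus strand for Igfbp3. Capitals mark GCGTG, the core that AhR and its partner ARNT bind, and its reverse CACGC.
Igfbp2: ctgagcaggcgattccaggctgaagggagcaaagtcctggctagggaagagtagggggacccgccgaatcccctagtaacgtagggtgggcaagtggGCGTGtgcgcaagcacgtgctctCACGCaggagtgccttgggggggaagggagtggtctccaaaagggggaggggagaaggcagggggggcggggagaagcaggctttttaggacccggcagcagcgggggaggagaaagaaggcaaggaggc
Igfbp3: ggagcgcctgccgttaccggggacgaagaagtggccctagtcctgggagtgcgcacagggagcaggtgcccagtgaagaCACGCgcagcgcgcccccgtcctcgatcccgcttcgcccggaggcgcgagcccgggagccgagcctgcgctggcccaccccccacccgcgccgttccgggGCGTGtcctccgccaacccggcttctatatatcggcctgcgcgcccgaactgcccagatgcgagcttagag

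The motif was searched on both strands in windows of 300 bases, 250 before and 50 after each start, and all 10 members had a window. It was found in 4 of 10 members, Igf2, Igf1r, Igfbp2 and Igfbp3, where 29.7% of 33469 promoters of that length hold it. Igf2 has a pair of windows and the motif was in 1 of them. Members are counted here by gene and the background by promoter, so the shares are not strictly alike. Igf1r had 3 matches, and Igfbp2 and Igfbp3 had 2 each. Igf1 had 0, which says only that these letters are not in this window.

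The pathway around the family was read from 5 lists of 63 genes, of which 56 were measured. Of these, 0 were called in either direction and the median difference was -0.02. At an unadjusted p under 0.05, 3 were higher, where 7.76% of all genes were, and 2 were lower, where 2.95% were. The groups did not overlap in 4 of 56, where 7.1% of all genes had no overlap.

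Downstream of the receptor, 24 of 26 signalling genes were measured, 11 higher and 13 lower in TCDD dams, with a median of -0.02. Pik3cb, a catalytic subunit of phosphatidylinositol kinase, gave -4.79, -4.85, -4.59 and -4.95 in TCDD dams, against -5.13, -5.07, -5.06 and -5.10 in control dams. Every TCDD array was above every control array, by a small margin, and the difference was 0.29 (SE 0.08, unadjusted p = 0.0068, adjusted p = 0.31). Foxo3, a transcription factor that AKT keeps out of the nucleus, gave -5.31, -5.24, -5.05 and -5.17 in TCDD dams, against -4.84, -4.51, -5.02 and -5.02 in control dams. All TCDD arrays lay below all control arrays, TCDD 3 only just, and the difference was -0.35 (SE 0.12, unadjusted p = 0.024, adjusted p = 0.40). Both genes were dim, and after normexp background correction and quantile normalization their differences were 0.12 for Pik3cb and -0.093 for Foxo3. Tsc2, an inhibitor of the mTOR complex, also had separate groups, with a difference of -0.11 (SE 0.06, adjusted p = 0.55).

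Of the genes on the growth hormone side, 10 of 10 of the receptor's signalling genes were measured, 3 higher and 7 lower, with a median of -0.06. The phosphatase Ptpn6 differed by -0.14 (SE 0.07, adjusted p = 0.54) and the signalling inhibitor Cish by -0.17 (SE 0.09, adjusted p = 0.57), or by -0.10 without TCDD 2. Of the somatotroph's own axis 10 of 10 were measured, 4 higher and 6 lower, with a median of -0.08. Pou1f1, the transcription factor of somatotrophs, lactotrophs and thyrotrophs, gave 2.88, 2.42, 2.24 and 2.77 in TCDD dams, against 2.10, 2.23, 2.24 and 2.34 in control dams. TCDD 1 and TCDD 4 were the highest, TCDD 3 was level with control 3, and the difference was 0.35 (SE 0.14, unadjusted p = 0.040, adjusted p = 0.44). A second Pou1f1 probe gave 0.27 (SE 0.15), and without TCDD 1 the Pou1f1 difference was 0.25. The somatostatin receptor Sstr3 (-0.37, SE 0.21) and the receptor for growth hormone-releasing hormone Ghrhr (-0.33, SE 0.20) had the next smallest p-values, with adjusted p of 0.59 and 0.62. The Sstr3 difference was -0.23 without TCDD 2 and -0.21 without control 4, and the Ghrhr difference was -0.22 without TCDD 1 and -0.19 without control 3. Ghsr, the ghrelin receptor, had the largest negative difference of this list (-0.42, SE 0.31), and is named after its values were seen. Gh1 itself differed by -0.08 (SE 0.06, adjusted p = 0.72).

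Among genes that set how much IGF is free outside the cell, 10 of 13 were measured, 7 higher and 3 lower, with a median of 0.11. Igfals, the acid-labile subunit of the complex with Igfbp3, was dim and differed by 0.41 (SE 0.17, unadjusted p = 0.045, adjusted p = 0.45), but by -0.028 after normexp background correction and quantile normalization. The binding protein Igfbp1 differed by 0.23 (SE 0.13), by 0.12 without TCDD 4, by 0.15 without control 4 and by 0.052 with the same normexp setting. Plg, the precursor of a protease, differed by 0.12 (SE 0.07), and by 0.081 without control 4. Of the imprinted neighbour of Igf2 and the proteins that bind its mRNA, 2 of 4 were measured. Igf2bp2, an mRNA-binding protein, gave -1.68, -1.35, -1.65 and -1.66 in TCDD dams, against -1.18, -1.04, -1.30 and -1.08 in control dams. All TCDD arrays lay below all control arrays, TCDD 2 only just, and the difference was -0.44 (SE 0.10, unadjusted p = 0.0018, adjusted p = 0.21). A second Igf2bp2 probe gave 0.15 (SE 0.22), so the probes disagree in sign, and their mean gave -0.14. H19, the noncoding neighbour of Igf2, differed by -0.09 (SE 0.35, adjusted p = 0.96), with TCDD 4 and control 2 far below the other arrays of their groups.

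**Figure D5:**
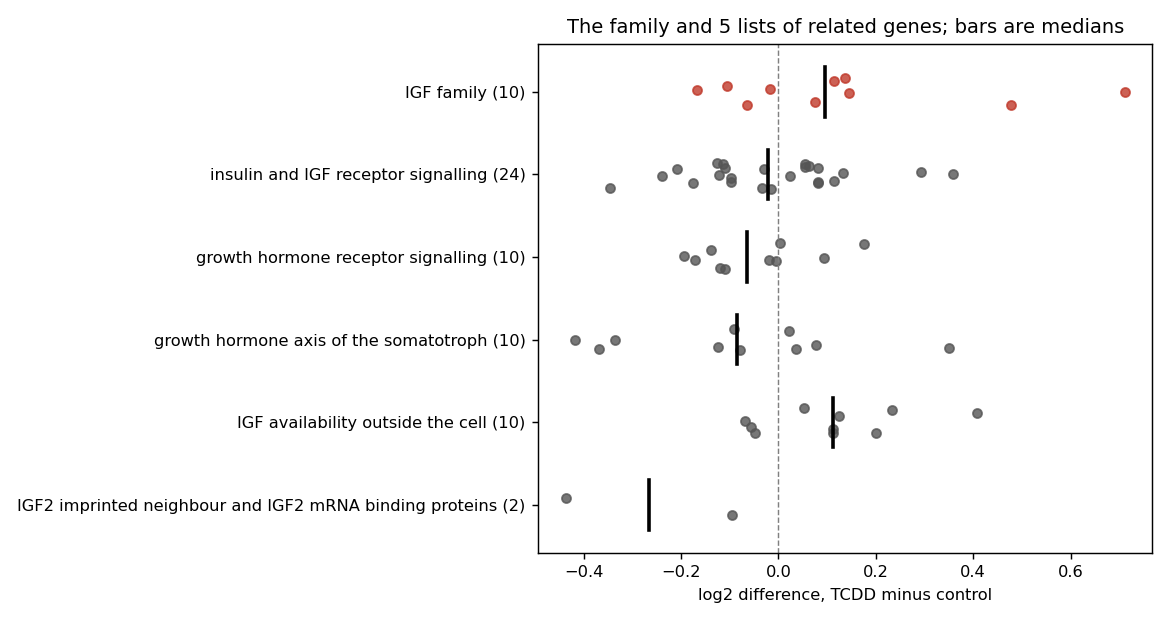
Log2 difference between TCDD and control dams for the 10 family members and the 56 measured genes of 5 related lists, 1 point per gene, with bars at the medians. Igf1 (0.71) and Igf2 (0.48) are the rightmost points, and every list has its median within 0.27 of 0.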

How the data were processed

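Per the file headers, the authors quantified 1-colour Cy3 arrays with Agilent Feature Extraction 10.7.1.1, which gave linear intensities for each spot after background subtraction and detrending. The authors also deposited a table of linear intensities for the same arrays, used here as an alternative; its scale beyond a shared distribution is not given in the sources used here. From the deposited intensities, log2 of the processed signal minus each array's 75th percentile over 42877 non-control spots was computed here. Outlier spots were set to missing and the spots of a probe averaged. A probe was kept if well above background on 4 or more of 8 arrays, and the brightest kept probe stood for its gene. Two-sided limma tests (3.58.1, R 4.3.3) of TCDD minus control, with no covariate, were run over 17361 genes and adjusted by Benjamini-Hochberg at 0.05; other probes came from the same fit over all kept probes. Differences between groups were recomputed with normexp, quantile or median scaling, with other filters on dim probes, with probes averaged, with outlier spots retained, with a trended robust variance, on the deposited table, with a replicate block, and without each array, and correlations with quantile scaling and without each array. Correlations used exact two-sided permutation. Probe names came from RefSeq for GRCr8 (18006 probes by accession, 2654 by symbol, 559 by an older symbol, 9148 kept the name in the files), and promoters are RefSeq's. Named genes were all 10 members, the 3 genes of each list with the smallest unadjusted p and, for each ligand, the 3 genes most like it. A gene that the rule takes is not reported here. The members and lists were chosen with earlier results of these data known. Nothing in the labels states that samples were pooled, so the p-values speak to the spread of these 8 samples. Same-numbered samples did not deviate together (correlations -0.10 to -0.02), but single members could differ from that. Within the family the replicate block lowered the SE most for Igfbp4 (0.35 to 0.15) and Igf2 (0.26 to 0.12), and raised it for Igfbp5 (0.14 to 0.16).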

Additional observations from a re-analysis of the deposited data

Results flagged for a closer look

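In 6 of 60 groups of 4 arrays tested, 1 array stood apart from the other 3, by the gap to its nearest neighbour as a share of the group's range; chance gives about 1 in 20. Among the family's 20 groups there were 2. Igf1r was low on TCDD 1 (-2.24, others -2.05 to -2.04, share 0.959), and Ghr was low on the same array (-5.09, others -4.69 to -4.61, share 0.835). Among the related genes, Igfbp1 was high on TCDD 4 (-1.84, others -2.29 to -2.25, share 0.903) and Igf2bp2 was high on TCDD 2 (-1.35, others -1.68 to -1.65, share 0.913). H19 was low on TCDD 4 (-3.07, others -2.05 to -2.02, share 0.974) and on control 2 (-3.09, others -1.98 to -1.77, share 0.842).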

How the results depend on the processing

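Of the family 0 of 10 members and of the 56 related genes 0 were called under all 18 alternatives by limma, with 0 to 2 members and 3 to 7 related genes at an unadjusted p under 0.05. The count over all genes, 14 as reported, was 0 with normexp (offset 50) and quantile normalization, 1 with quantile normalization alone, 9 with median centring, 4 with a trended and robust variance, 1 on the deposited table and 0 with the replicate block; leaving out 1 array gave 0 to 11, and the cause was not tested. The replicate block gave Igf1 an unadjusted p of 0.0107 and Igf2 one of 0.0115 (adjusted p = 0.45 for both) and changed no member's call; 0 of the same-numbered pairs correlated best with their own number. Igf1 stayed positive in 19 settings (adjusted p 0.37 to 0.63) and Igf2 in 18 (0.45 to 0.74). Reversed values were Igfals at -0.028 with normexp and Ghr at 0.091 with its other probe; leaving out 1 array gave ranges of -0.41 to 0.027 for Ghr, -0.15 to 0.091 for Igf2r, -0.57 to 0.14 for Igfbp2, -0.21 to 0.52 for Igfbp3, -0.28 to 0.17 for Igfbp4, 0.024 to 0.22 for Igfbp5, -0.018 to 0.27 for Igfbp6 and -0.39 to 0.16 for H19. Pairs of members passing were 0 as reported and 1 with quantile normalization (Igfbp2 with Igfbp3, adjusted p = 0.030), and 0 to 4 when 1 array was left out, 3 without control 2, 4 without control 3. The correlations with corticotroph and melanotroph markers, checked in alternatives added after the data were seen, stayed between 0.95 and 0.99 for Igfbp2 and between -0.94 and -0.90 for Igfbp3. Signal near background limits the values of Ghr, Igfals, Foxo3, Pik3cb and Crhr1.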
